A study of Mus musculus with 18 samples.

Results

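DNA replication and G1/S genes were taken as 37 genes listed by symbol, and their Ensembl identifiers were looked up in the table of expected counts, which holds 48795 gene IDs. All 37 were found, and all 37 were among the 15436 genes that passed a filter on low counts. The cells were C2C12 myotubes, mouse muscle cells of 1 established line that fuse into fibres after serum is reduced, here by 5 days in 2% horse serum. There were 18 RNA sequencing libraries in 6 groups of 3, and the labels do not state whether replicates were separate cultures, so p-values reflect only the spread among these libraries, which may be technical. Control cells were kept in 0.1% DMSO, the solvent, for 36 h. A pair of groups had ginsenoside Rc, a steroid glycoside of ginseng, at 10 or 20 µM for 36 h. The other 3 groups had dexamethasone, a synthetic glucocorticoid, at 200 µM for the last 24 h, after 12 h of pre-treatment with vehicle or with 10 or 20 µM ginsenoside Rc. Whether ginsenoside Rc stayed on the cells with dexamethasone is not given in the sources used here, and DMSO is recorded for the control and dexamethasone groups. The question the design puts to these genes is how dexamethasone changed them and whether either dose of ginsenoside Rc changed them, alone or with dexamethasone.

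A cell copies its DNA once per cycle in steps that these genes serve. The origin recognition complex, Cdc6 and Cdt1 load the MCM2-7 helicase ring in G1; Cdc45, the GINS complex and Mcm10 turn it on; polymerases alpha, delta and epsilon, the clamp Pcna and its loader RFC copy the strands; Fen1 and Lig1 join the lagging strand pieces. Ribonucleotide reductase (Rrm1 with Rrm2), thymidylate synthase (Tyms) and thymidine kinase (Tk1) supply deoxynucleotides, and Uhrf1 carries DNA methylation over to the new strand. E2f1 and the E-type cyclins open S phase, and E2F factors, held back by the retinoblastoma family, drive many of the others. Fused myotubes have left the cell cycle, while the mononuclear cells that remain in such a culture can still divide.

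With dexamethasone, 33 of the 37 genes were lower than in control, 1 was higher (Rrm2) and 3 did not pass (Gins3, Gins4 and Rfc1). Over all 15436 genes tested, 23.2% were lower and 20.6% were higher. The median log2 fold change was -0.94 for the 37 genes and -0.01 for all genes tested, and the 37 ran from -2.50 for Tk1 to 0.49 for Rrm2. For 15 of the 37 the fall was more than 2-fold, a size that 6.42% of all genes reached, and for 35 of the 37 all 3 dexamethasone libraries lay below all 3 controls, against 30.5% of all genes. These calls, and all calls below, come from edgeR's quasi-likelihood test with Benjamini-Hochberg adjustment over all genes tested, at an adjusted p of 0.05.

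Dexamethasone was also compared with its absence at each dose of ginsenoside Rc. These comparisons share no library with the first or with each other, though all 3 come from 1 model. At 10 µM, 33 of the 37 were lower and Rrm2 was higher, with a median of -0.87, where 23.0% of all genes were lower and 21.1% higher. At 20 µM, 33 were lower and Rrm2 was higher, with a median of -0.99, where 25.4% of all genes were lower and 23.5% higher. In all 3 comparisons 32 of the 37 genes were lower, a condition met by 18.7% of all genes tested. The 5 others were Rrm2, Gins3, Gins4, Pcna and Rfc1. Across the 37 genes the log2 changes of the 3 comparisons had Pearson correlations of 0.975 to 0.981, a description over genes, which are not independent replicates. The largest gap between the first comparison and the one at 20 µM was 0.64, for Cdc6. Without composition scaling, the dexamethasone calls over all genes shifted from 3578 lower and 3177 higher to 4393 and 2368, and at 10 µM from 3556 and 3264 to 4374 and 2449. The median of all genes moved by less than 0.1 on the log2 scale, and Gins3, Gins4 and Rfc1 then passed as lower in the comparison with control, at adjusted p of 0.0255, 0.0453 and 0.0219.

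**Figure D1:**
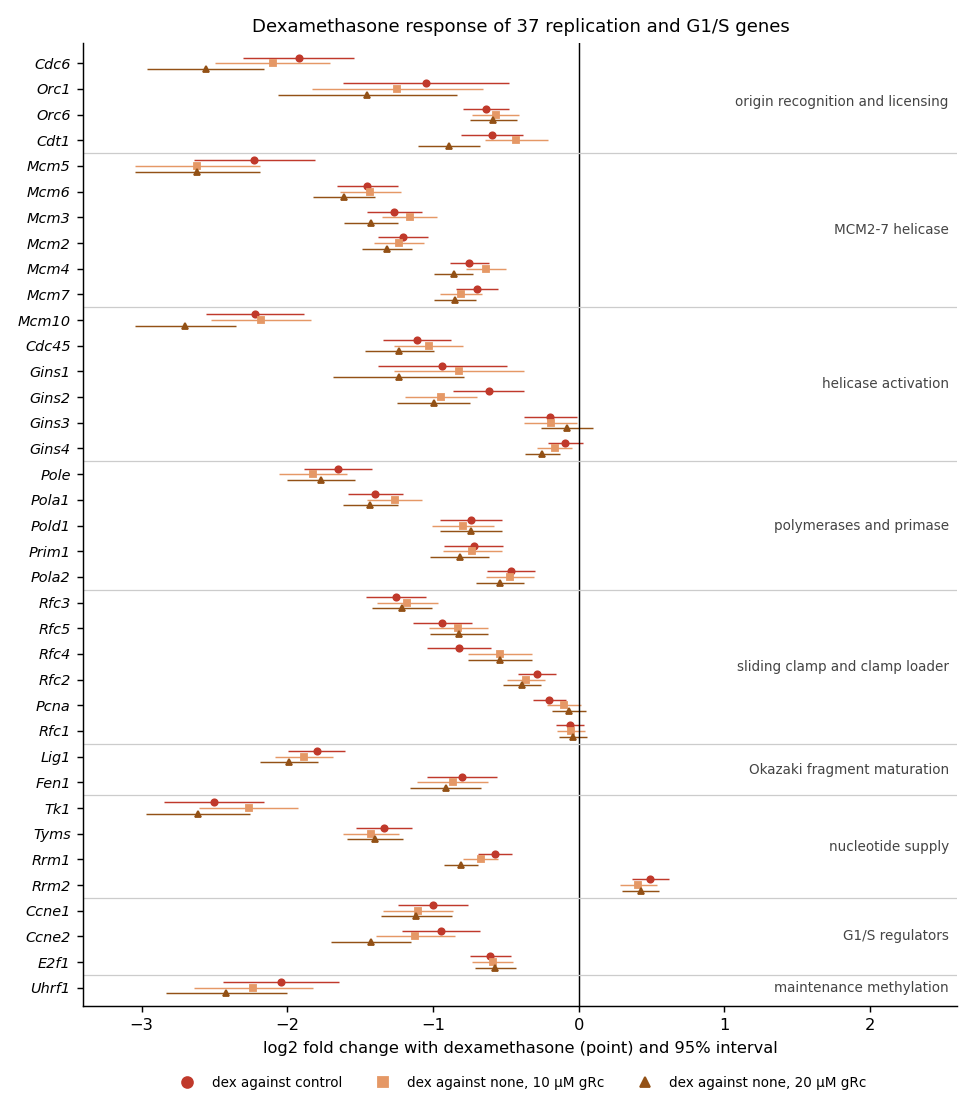
Log2 fold change with dexamethasone (horizontal axis; points, with 95% intervals) of the 37 genes, grouped by role, in the 3 comparisons that share no library. Points lie left of 0 for 36 genes, from -0.06 for Rfc1 to -2.50 for Tk1 against control, and Rrm2 lies to the right in all 3 comparisons.

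The stretches before the start sites of 6 of the genes are shown because most of the 37 moved together and E2F is the textbook regulator of replication genes, and because 3 of the 6 hold letters of an E2F site while 3 do not. The sequences are from RefSeq on GRCm38.p6, which had windows of 250 bases before to 50 after the start for 30 of the 37 genes; Mcm4, Gins1, Gins2, Gins4, Pole, Rfc2 and Ccne2 had none. Each is written 5′ to 3′ on the strand of its gene and stops before the first exon in the GENCODE annotation. Capitals mark any of the 4 motifs searched on both strands, TTTCCCGC, TTTGGCGC, TTTCGCGC and TTTGCCGC, which can overlap each other.
Mcm5, chr8:75109259-75109508, plus strand, 2 overlapping matches: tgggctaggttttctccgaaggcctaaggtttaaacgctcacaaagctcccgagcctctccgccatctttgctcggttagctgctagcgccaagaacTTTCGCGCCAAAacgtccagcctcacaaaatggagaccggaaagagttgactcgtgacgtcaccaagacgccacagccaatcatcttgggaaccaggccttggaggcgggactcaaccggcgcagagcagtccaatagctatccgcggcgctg
Mcm6, chr1:128359706-128359955, minus strand, 3 matches, of which 2 overlap: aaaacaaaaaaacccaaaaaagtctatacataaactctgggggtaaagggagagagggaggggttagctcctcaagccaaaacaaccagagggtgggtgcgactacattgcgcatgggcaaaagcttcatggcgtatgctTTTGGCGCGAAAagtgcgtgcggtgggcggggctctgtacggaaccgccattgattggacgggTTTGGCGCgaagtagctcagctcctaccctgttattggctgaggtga
Pola1, chrX:93632156-93632405, minus strand, 1 match: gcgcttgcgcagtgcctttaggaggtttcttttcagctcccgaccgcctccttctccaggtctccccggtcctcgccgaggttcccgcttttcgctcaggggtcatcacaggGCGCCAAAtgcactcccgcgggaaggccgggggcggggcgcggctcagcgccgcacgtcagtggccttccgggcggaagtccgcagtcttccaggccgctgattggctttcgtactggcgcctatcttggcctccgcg
Mcm10, chr2:5012792-5013041, minus strand, no match: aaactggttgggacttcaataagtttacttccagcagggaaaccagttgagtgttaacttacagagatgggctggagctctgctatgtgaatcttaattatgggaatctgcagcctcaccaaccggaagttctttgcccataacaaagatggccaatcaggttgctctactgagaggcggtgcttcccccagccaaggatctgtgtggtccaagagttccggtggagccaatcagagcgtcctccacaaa
Rrm2, chr12:24708004-24708240, plus strand, no match: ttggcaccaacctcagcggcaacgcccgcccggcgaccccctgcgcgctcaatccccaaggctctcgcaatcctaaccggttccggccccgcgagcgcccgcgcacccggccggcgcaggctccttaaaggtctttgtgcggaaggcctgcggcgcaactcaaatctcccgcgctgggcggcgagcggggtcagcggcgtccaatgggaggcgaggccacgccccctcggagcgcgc
Rfc1, chr5:65335671-65335889, minus strand, no match: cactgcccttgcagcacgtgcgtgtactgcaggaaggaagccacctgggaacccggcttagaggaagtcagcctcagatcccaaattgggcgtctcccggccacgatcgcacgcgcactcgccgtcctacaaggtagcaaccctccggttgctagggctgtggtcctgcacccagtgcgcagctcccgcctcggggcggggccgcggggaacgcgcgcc

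Of the 30 genes with a window, 13 (43.3%) held at least 1 of the 4 motifs, against 2.6% of 27025 genes with windows of the same length and 4.46% of the 11031 among them that were tested. The 13 were Cdc6, Cdt1, Gins3, Lig1, Mcm3, Mcm5, Mcm6, Mcm7, Orc1, Pola1, Pold1, Rfc3 and Uhrf1. A gene with more than 1 window was counted if any of them held a match. For Lig1 and Uhrf1 the window nearest the annotated gene start held none, and the match lay in a window further into the gene. The share was 30% in the 250 bases before the start alone, and 33.3% with TTTCCCGC and TTTGGCGC alone. Genes with and without a match fell: 12 of the 13 genes with a match were lower with dexamethasone (median -1.26) and 15 of the 17 without (median -0.80), and Gins3, with a match, did not pass. Mcm10, with no match in its window, fell as far as Mcm5, which holds 2, but this is a single pair picked from the 30. The part of E2F in these falls was not tested. Among the other genes tested, 27.8% of 479 with a match and 23.9% of 10522 without were lower. The CCAAT box, which many cell cycle promoters carry, was in 60% of the 30 windows and 42.8% of tested genes' windows. The GC box GGGCGG was in 76.7% and 66.5%, the CHR element TTTGAA of G2/M promoters in 13.3% and 14.4%, and the glucocorticoid half-site TGTTCT in 16.7% and 15.2%. A match is a description of letters in the window, not a bound site. No match means only that none of the 4 exact motifs was in the windows searched, not that the gene lacks an E2F site. For E2f1, on the minus strand, the window (bases 154569377 to 154569676) lay inside the annotated gene, which starts at base 154569892.

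The libraries held 32350889 to 45388609 expected counts each and are labelled as 1 batch. All 5 genes listed as a check of glucocorticoid exposure (Fkbp5, Klf9, Per1, Tsc22d3 and Zbtb16) were higher with dexamethasone, and their summed level was 152.9 to 153.3 CPM (counts scaled to library size, with TMM) in control and 1189 to 1246 with dexamethasone. All 18 myotube markers were detected, with a summed level of 29620 to 30720 CPM in control and 33870 to 35700 with dexamethasone; 14 were higher (Myh8 by 1.44 and Myh4 by 1.19 on the log2 scale, both adult or perinatal fast myosin heavy chains) and 2 lower (embryonic myosin Myh3, -0.90, and the fusion micropeptide Mymx, -0.35). Of 16 markers of undifferentiated myoblasts, none at 0, 11 were lower and 4 higher, with a summed level of 2005 to 2054 CPM in control and 1925 to 1996 with dexamethasone. Fgfr4 (-1.47) and Vcam1 (-1.35) had the largest falls among them, and Id3 (1.24) and Myf5 (1.14) the largest rises. As a scale for these marker counts, 23.2% of all genes tested were lower and 20.6% higher. All 28 mitosis and G2/M genes were lower, from 636.4 to 663.9 CPM summed in control to 112.6 to 157.4, with a median of -2.84; the proliferation antigen Mki67 (-3.41) and the mitotic kinesin Kif23 (-3.16) led. The part of these marker changes in the results on replication genes was not tested, and in such bulk RNA fewer dividing cells and less RNA per cell cannot be told apart. Replicate 2 of the 20 µM group without dexamethasone had 2.79% mitochondrial counts, where the other 17 libraries had 1.26% to 1.91%.

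**Figure D2:**
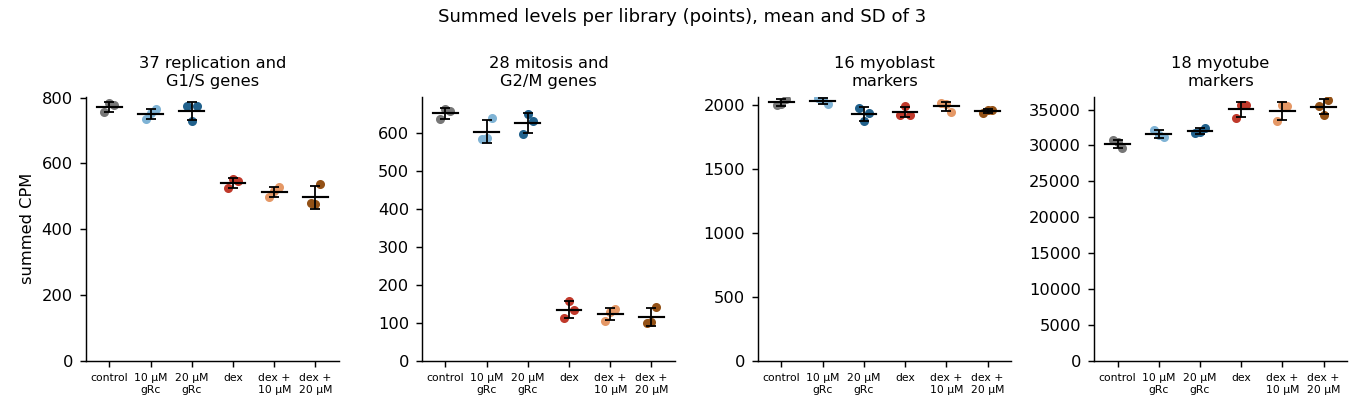
Summed CPM (vertical axis, from 0) in each library (points; bars are the mean and SD of 3) for the 37 replication and G1/S genes, 28 mitosis and G2/M genes, 16 myoblast markers and 18 myotube markers. The 9 libraries with dexamethasone lie below the 9 without in the first 2 panels, at 475 to 552.6 against 729.6 to 783.7 CPM for the 37 genes.

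Per transcript length, the 37 genes spanned a wide range in control cells. TPM (a length-scaled level, computed from the expected counts and exon lengths) was highest for Rrm2, at 120 ± 2.22 (SD, n = 3), followed by Pcna at 88.6 ± 2.7 and Rrm1 at 52.9 ± 1.69. Gins4 (34.6 ± 0.174) and Orc6 (33.8 ± 0.826) came next, with close library ranges of 34.4 to 34.7 and 32.9 to 34.3 that did not overlap. Pcna shares reads with a near-identical pseudogene, Pcna-ps2, which held 15.2 to 17.7 CPM in control beside 49.7 to 53.6 for Pcna. The level of Pcna therefore depends on how these reads were divided. At the low end stood Pole (2.57 ± 0.202), Cdc6 (2.53 ± 0.260), Mcm10 (1.73 ± 0.0945) and Orc1 (0.921 ± 0.209), and of these Pole and Cdc6 lay within their spread of each other.

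All 4 origin recognition and licensing genes were lower with dexamethasone in each of the 3 comparisons. Cdc6, the loader ATPase, had 4.21, 4.61 and 5.07 CPM in the control libraries and 1.02, 1.43 and 1.21 with dexamethasone, with no overlap, a log2 change of -1.92 ± 0.18 (SE; adjusted p = 7.75e-08). It ranged over 3.99 to 5.1 and 5.03 to 5.39 CPM at 10 and 20 µM ginsenoside Rc alone, and over 0.687 to 1.42 and 0.718 to 1.01 CPM with dexamethasone added. Orc6, a small subunit of the origin complex and the highest of the 4 in CPM, went from 21.1, 21.2 and 19.9 to 12.7, 13.4 and 13.8 CPM, a change of -0.64 ± 0.08 (adjusted p = 1.64e-06). Its range was 18.1 to 20.5 CPM at 10 µM, 18.2 to 20.5 at 20 µM, 12.2 to 14.4 at 10 µM with dexamethasone and 12.4 to 14.1 at 20 µM with dexamethasone. Cdt1, the partner of Cdc6 in loading, had 7.12, 5.63 and 5.98 CPM in control and 3.75, 4.54 and 4.07 with dexamethasone, -0.60 ± 0.10 (adjusted p = 9.31e-05). Its log2 change was -0.43 at 10 µM and -0.89 at 20 µM, and its libraries held 5.23 to 5.99, 6.64 to 7.02, 4.04 to 4.54 and 3.39 to 3.9 CPM in the 4 groups with ginsenoside Rc, in the order given before. Orc1, the ATPase subunit, fell by 1.05 on the log2 scale from about 1 CPM, with the widest error of the 37 genes (SE 0.27).

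All 6 subunits of the MCM2-7 ring fell, but by unequal amounts although the ring holds 1 copy of each. Mcm5 had 17.2, 17.5 and 17.9 CPM in control and 2.9, 4.95 and 3.35 with dexamethasone, a change of -2.23 ± 0.20 (adjusted p = 5.89e-08). At 10 and 20 µM with dexamethasone it ranged over 2.49 to 3.61 and 2.09 to 4.29 CPM, against 17.2 to 18.1 and 16.2 to 19.8 CPM at those doses alone. Mcm6, the highest of the 6 in CPM, had 41.6, 45.9 and 46.7 in control and 14.6, 18 and 16.5 with dexamethasone, a change of -1.45 ± 0.10 (adjusted p = 1.1e-09). Its ranges were 41.2 to 42.2 and 40 to 44.5 CPM with ginsenoside Rc alone and 13.7 to 16.7 and 12.6 to 16.7 CPM with dexamethasone. The others fell by 1.26 (Mcm3), 1.21 (Mcm2), 0.75 (Mcm4) and 0.70 (Mcm7). The ratio of Mcm7 to Mcm5 per exon length was 2.24 to 2.29 in control and 5.40 to 7.94 with dexamethasone. It was 2.02 to 2.43 in the 6 libraries with ginsenoside Rc alone and 5.46 to 9.63 in the 6 with both.

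Among the genes that activate the helicase, Mcm10, Cdc45, Gins1 and Gins2 fell against control and Gins3 and Gins4 did not pass. Mcm10 had 3.25, 3.18 and 3.45 CPM in control and 0.58, 0.76 and 0.768 with dexamethasone, -2.22 ± 0.16 (adjusted p = 2e-09), and its other groups held 2.88 to 3.09, 3.24 to 3.83, 0.594 to 0.738 and 0.427 to 0.761 CPM. Cdc45, the helicase partner, changed by -1.11, Gins1 by -0.94 and Gins2 by -0.62. The 4 GINS subunits form 1 complex, yet Gins4 had 18, 18.1 and 17.5 CPM in control and 16.6, 16.7 and 17.1 with dexamethasone. That difference, -0.09 ± 0.06 with a 95% interval of -0.21 to 0.03, did not pass (adjusted p = 0.223), although all 3 dexamethasone libraries lay below the controls. Gins4 passed at 10 µM (-0.16, adjusted p = 0.0278) and at 20 µM (-0.25, adjusted p = 0.00168), with 17.3 to 19.4 against 15.3 to 16.7 CPM and 17.6 to 18.5 against 14.4 to 16 CPM. At 10 µM it no longer passed without replicate 2 of either group (adjusted p = 0.168 and 0.138) or with no filter on low counts (adjusted p = 0.13). Gins3 had 7.63, 8.5 and 8.87 CPM in control and 6.99, 7.21 and 7.68 with dexamethasone, overlapping values, and changed by -0.19 ± 0.09 (adjusted p = 0.0759). It passed without control replicate 1 (adjusted p = 0.0382) and in a model without the 20 µM library of high mitochondrial share (adjusted p = 0.0465). In the groups with ginsenoside Rc it held 7.59 to 8.75, 7.24 to 8.26, 6.88 to 7.5 and 6.8 to 7.96 CPM, and its changes at 10 and 20 µM were -0.19 and -0.08, not passing, though at 10 µM it passed without composition scaling (adjusted p = 0.0252) and with limma voom (adjusted p = 0.0453).

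All 5 polymerase and primase genes fell in all 3 comparisons. Pole, the catalytic subunit of polymerase epsilon, which copies the leading strand, had 6.72, 7.9 and 7.3 CPM in control and 2.39, 2.49 and 2.08 with dexamethasone, -1.65 ± 0.11 (adjusted p = 7.96e-10). Its ranges were 7.3 to 7.9 and 7 to 8.55 CPM with ginsenoside Rc alone and 1.99 to 2.29 and 2.12 to 2.65 CPM with both. Within the polymerase alpha complex, which starts each strand, the catalytic Pola1 changed by -1.39 and the accessory Pola2 by -0.46, with 95% intervals that do not overlap. Pola2, the highest of the 5 in CPM, had 12.2, 14.2 and 12.5 in control, 9.89, 8.93 and 9.44 with dexamethasone, and 13.1 to 13.8, 13.3 to 15.2, 8.83 to 10.4 and 9.08 to 10 in the other groups. Per exon length, Pola2 stood at 1.78 to 2.21 times Pola1 in control and at 3.11 to 4.31 times with dexamethasone. Pold1, catalytic in polymerase delta, changed by -0.74 and the primase subunit Prim1 by -0.72.

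The clamp Pcna and the loader subunit Rfc1 were, with Gins3 and Gins4, the 4 genes nearest to no change against control. Pcna had 53.6, 51.5 and 49.7 CPM in control and 47.4, 42.7 and 44.5 with dexamethasone, a fall of 0.20 ± 0.06 on the log2 scale (adjusted p = 0.00637). It did not pass at 10 µM (-0.10, adjusted p = 0.149) or at 20 µM (-0.07, adjusted p = 0.337), where its ranges were 48.5 to 51.5 against 45.7 to 47.9 CPM and 46.8 to 52.7 against 47.4 to 50.6 CPM. At 10 µM it passed without composition scaling (adjusted p = 0.031), and at 20 µM with limma voom (adjusted p = 0.0147) and without replicate 2 of the group without dexamethasone (adjusted p = 0.0489). Part of its reads is shared with the pseudogene Pcna-ps2, 99.2% identical over 781 bases: the parts after the decimal point of the 2 expected counts added up to a whole number in 18 of 18 libraries, within 0.015. With both summed before the fit, a setting added after the data were seen, the change against control was -0.20 (adjusted p = 0.0197). Rfc1, the large subunit of the loader, had 50, 49.1 and 51.8 CPM in control and 48.3, 49.1 and 47.4 with dexamethasone, and 50.4 to 53, 50.2 to 54.9, 48.3 to 51.2 and 49.9 to 51.5 in the other groups. It did not pass in any of the 3 comparisons, except without composition scaling against control and at 10 µM (adjusted p = 0.0219 and 0.0248), and its change against control was -0.06 ± 0.04, with a 95% interval of -0.15 to 0.03. The small subunits fell by 1.25 (Rfc3), 0.94 (Rfc5), 0.82 (Rfc4) and 0.29 (Rfc2). Rfc3 had 10.6, 10.2 and 10.9 CPM in control and 4.45, 4.14 and 4.66 with dexamethasone (adjusted p = 6.23e-09), with 8.44 to 9.89, 9.89 to 11.1, 3.88 to 4.34 and 3.77 to 5.1 in the other groups.

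Lig1, the ligase that seals lagging strand pieces, had 17.7, 20 and 19.8 CPM in control and 5.25, 5.99 and 5.3 with dexamethasone, -1.80 ± 0.09 (adjusted p = 2.79e-11). With ginsenoside Rc alone it ranged over 19 to 20.1 and 17.9 to 19.5 CPM, and with both over 4.57 to 5.85 and 4.3 to 5.43 CPM. Fen1, the flap nuclease of the same step, fell less, by 0.80 (adjusted p = 1.36e-05).

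Against control, the 4 genes of nucleotide supply held both the largest fall and the single rise. At 10 and 20 µM the largest falls lay in other roles, at -2.62 in the MCM2-7 ring and -2.7 in helicase activation. Thymidine kinase, Tk1, on chromosome 11 (bases 117815526 to 117826092 of GRCm38, minus strand), had 14.2, 15.4 and 13.1 CPM in control and 1.98, 3.08 and 2.43 with dexamethasone, a 5.68-fold fall (log2 -2.50 ± 0.16, adjusted p = 6.46e-10). Its other groups held 12.1 to 14.3, 11.2 to 14.3, 2.15 to 3.2 and 1.8 to 2.66 CPM. Tyms fell by 1.34 (adjusted p = 1.1e-09).

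Ribonucleotide reductase needs a large subunit, Rrm1, and a small subunit, Rrm2, and these moved in opposite directions. Rrm1, on chromosome 7 (bases 102441695 to 102469771, plus strand), had 78.9, 82 and 82.6 CPM in control and 52.7, 55.7 and 55.3 with dexamethasone, a change of -0.57 ± 0.06 (adjusted p = 1.18e-07). Rrm2, on chromosome 12 (bases 24708241 to 24714146, plus strand), had 99.7, 103 and 102 CPM in control and 138, 144 and 145 with dexamethasone, a change of 0.49 ± 0.06 (adjusted p = 2.12e-06). In neither gene did the groups overlap. At 10 µM Rrm2 went from 92.7, 95.3 and 99.3 to 121, 128 and 132 CPM (0.41, adjusted p = 1.93e-05), and at 20 µM from 94.3, 81.3 and 91.1 to 112, 116 and 130 (0.42, adjusted p = 1.12e-05). Rrm2 was higher under every alternative tried in each of these comparisons. The ratio of Rrm2 to Rrm1 per exon length was 1.84 to 2.30 in the 9 libraries without dexamethasone and 4.46 to 4.94 in the 9 with it. Rrm2b, the p53-induced small subunit that serves cells outside S phase, rose by 0.19 ± 0.06 (adjusted p = 0.0205), and Samhd1, which breaks down deoxynucleotides, rose by 0.63 ± 0.06 (adjusted p = 1.94e-07).

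**Figure D3:**
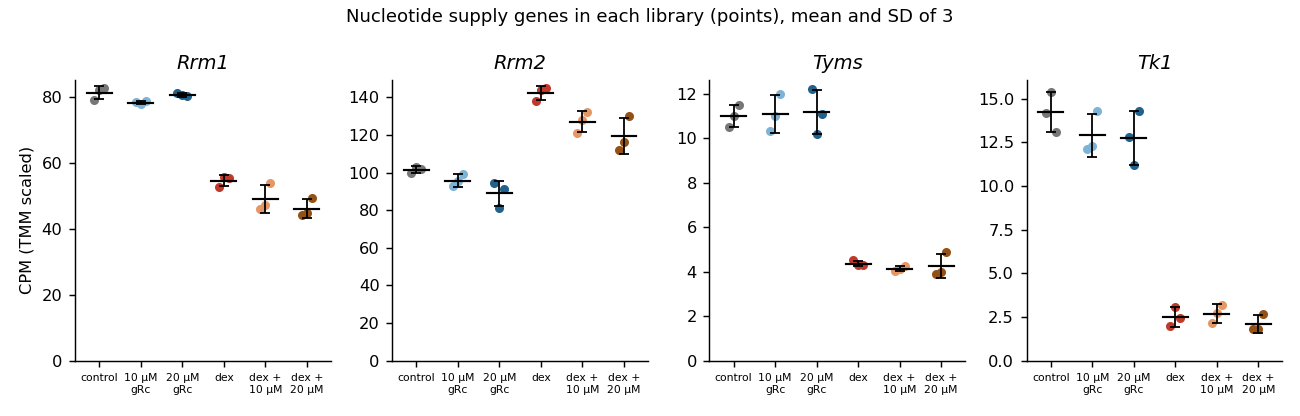
CPM (vertical axes, each from 0) of Rrm1, Rrm2, Tyms and Tk1 in each of the 18 libraries (points), with the mean and SD of 3. Rrm2 lies at 81.3 to 103 without dexamethasone and at 112 to 145 with it, while the other 3 genes lie lower with dexamethasone in every library.

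The 3 G1/S regulators fell. E2f1, which opens S phase transcription, had 24.8, 21.6 and 23.3 CPM in control and 15.6, 15.3 and 14.8 with dexamethasone, -0.61 ± 0.07 (adjusted p = 5.81e-07), and its other groups held 22.4 to 23.4, 21.4 to 23.9, 14.8 to 15.7 and 14.4 to 16.6 CPM. Cyclin E1, Ccne1, which activates Cdk2 at the start of S phase, had 6.96, 8.9 and 7.66 CPM in control and 3.75, 4.26 and 3.77 with dexamethasone, -0.999 ± 0.11 (adjusted p = 9.84e-07), with 7.49 to 8.75, 7.38 to 8.53, 3.49 to 4.25 and 3.3 to 4.21 in the others. Its relative Ccne2 had 9.97, 12.8 and 12.9 CPM in control and 5.44, 7.09 and 5.97 with dexamethasone, -0.94 ± 0.13 (adjusted p = 7.36e-06). Without and with dexamethasone Ccne2 ranged over 11.5 to 12.7 and 5.11 to 5.9 CPM at 10 µM and over 12.1 to 15.5 and 4.22 to 5.63 CPM at 20 µM. Uhrf1, which brings the methyltransferase to new DNA, had 17.7, 20.9 and 18.9 CPM in control and 3.26, 5.43 and 5.26 with dexamethasone, -2.04 ± 0.19 (adjusted p = 1.07e-07), and 15.5 to 20.5, 17 to 19.2, 3.36 to 4.34 and 2.65 to 4.74 in the others. For each of these 4 genes all 3 dexamethasone libraries lay below all 3 controls, as they did for 30.5% of all genes.

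Several of the genes share their locus with another expressed gene, and 11 of the 37 overlap one with a mean count of at least 50 (Orc6, Cdt1, Mcm7, Cdc45, Gins2, Rfc4, Rfc5, Fen1, Lig1, Tk1 and Ccne2). The strand setting of the counting is not given in the sources used here. For Gins2 with Gse1, Ccne2 with Ints8 and Rfc5 with Wsb2, each on opposite strands, the summed expected counts were whole in 18 of 18 libraries while those of the replication gene alone were whole in 2, 0 and 0. Reads were therefore divided between these pairs, across strands, by estimation, although the libraries are described as strand-directional. Against control, Gse1 changed by 0.33 (adjusted p = 0.0845), Ints8 by -0.05 (adjusted p = 0.438) and Wsb2 by 0.19 (adjusted p = 0.000793), and none of the 3 passed as lower. Of the 13 overlapping genes at these loci 3 were lower against control: Afmid, at Tk1 (-0.66, adjusted p = 0.00159), Tmem258, at Fen1 (-0.22, adjusted p = 0.0133), and Zswim9, at Lig1 (-0.22, adjusted p = 0.0385). Tk1, Fen1 and Lig1 changed by -2.50, -0.80 and -1.80. Gm20388 overlaps Cdt1 on the same strand, with a mean count of 650.5 against 209.4 for Cdt1, and Gins2 on the opposite strand. Its change against control was -1.02 with a wide error (SE 1.36) and did not pass. A division of reads between Gm20388 and Cdt1 or Gins2 was not tested.

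**Figure D4:**
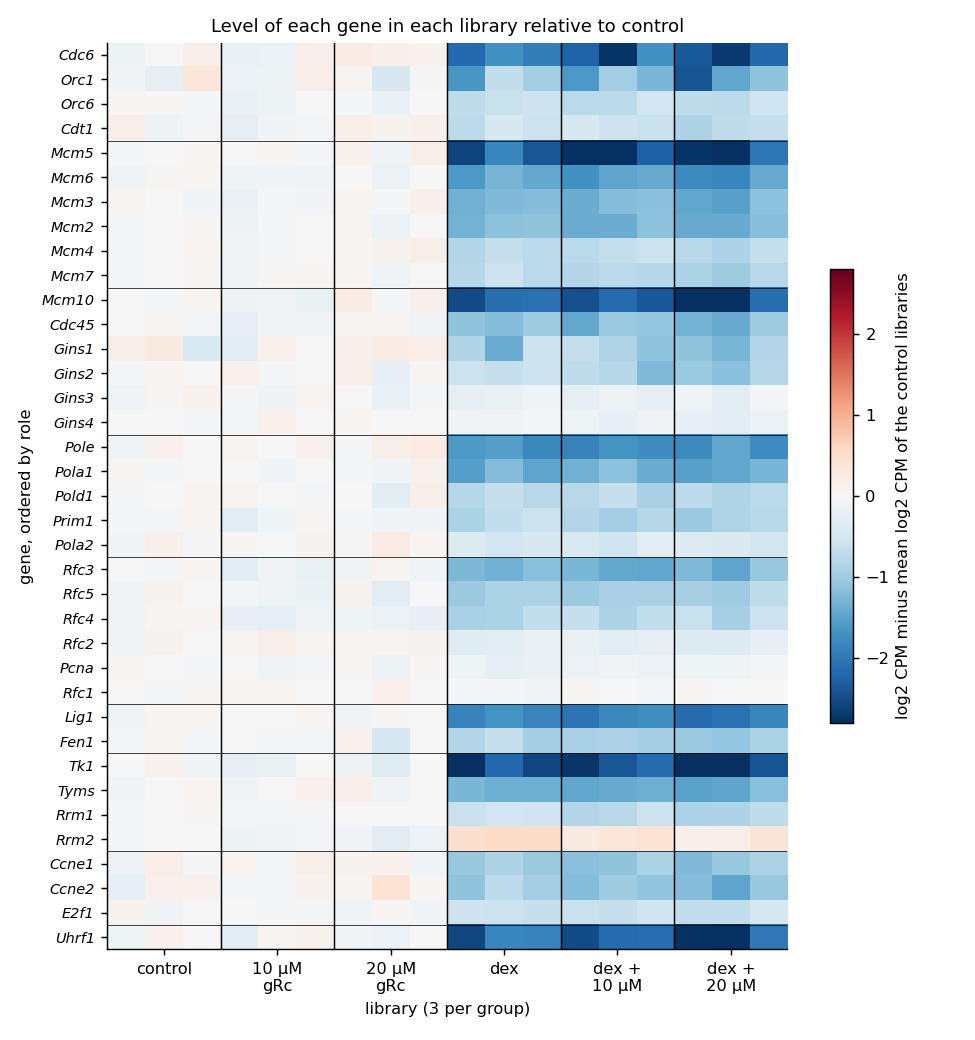
Log2 CPM of each gene (rows, ordered by role) in each of the 18 libraries (columns, 3 per group), as the difference from the mean of the control libraries; blue is lower and red higher. The 9 libraries with dexamethasone stand apart from the 9 without, with Rrm2 above the control mean in all 9 and Gins3, Gins4, Pcna and Rfc1 pale. Single libraries without dexamethasone also lie above it, such as Ccne2 in replicate 2 of the 20 µM group (15.5 CPM).

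Other genes of the pathway were read from lists written down with earlier results of these data known. Where 23.2% of all genes were lower and 20.6% higher with dexamethasone, 46 of 62 further replication and G1/S genes were lower. The median of the 62 was -0.72, and 3 were higher and 13 did not pass. Cyclin A2, Ccna2, had the largest fall (-3.18 ± 0.22), followed by Ticrr, which helps to load Cdc45 (-2.57 ± 0.22). The 3 that rose were Samhd1, Rrm2b and Mcmbp, a binding protein of MCM complexes (0.13 ± 0.04, adjusted p = 0.0219). Origin subunits Orc2, Orc3 and Orc4 were among those that did not pass, as were the accessory polymerase subunits Pold2, Pold3, Pole3 and Pole4.

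Of 16 genes of the retinoblastoma family, the other E2F factors and the DREAM complex, which hold replication genes back or drive them, 5 were lower, 4 higher and 7 did not pass, shares near the 23.2% lower and 20.6% higher of all genes. E2f7, a repressor that is itself an E2F target, fell by 2.61, and the pocket protein gene Rbl1 by 1.03. Tfdp2, a dimer partner of E2F, rose by 0.80 and the repressor E2f6 by 0.52. Of 13 CDK inhibitor and p53 response genes 11 were tested, beside the same 23.2% lower and 20.6% higher of all genes. Of the 11, 3 were lower, led by Cdkn1c (-0.94) and Cdkn2c (-0.73), and 5 higher, led by Sesn1 (1.29) and Gadd45a (0.74). Cdkn1a, the p21 gene, did not pass.

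The genes outside the list whose log2 CPM followed the mean of the 37 most closely over the 18 libraries were Rcn3 (Pearson r = 0.998), E2f2 (0.997), Bub1b (0.997), Iqgap3 (0.997) and Kif20a (0.997). The 18 libraries share the split by dexamethasone. Within the 9 libraries without dexamethasone r was 0.461, 0.243, 0.473, 0.467 and 0.581 for the same genes, and within the 9 with it 0.949, 0.973, 0.977, 0.944 and 0.951. These are descriptions over libraries of 3 groups each.

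Ginsenoside Rc alone moved none of the 37 genes past the threshold. At 10 µM 0 of 37 passed with edgeR, where 0.00648% of all genes did (1 gene), and 1 of the 37 had an unadjusted p under 0.05, as had 2.54% of all genes. At 20 µM 0 of 37 passed, where 0.104% of all genes did (16 genes), and 1 of the 37 had an unadjusted p under 0.05, against 9.29% of all genes. DESeq2 and limma voom also called 0 of the 37 at either dose. The medians of the 37 were -0.04 and -0.01. All 3 libraries lay below all 3 controls for 6 of the 37 genes at 10 µM and for 2 at 20 µM, against 6.39% and 7.04% of all genes. The smallest p at 10 µM belonged to Rfc3 (-0.20, 95% interval -0.40 to -0.01), Rfc4 (-0.19) and Rfc2 (0.10), all with an adjusted p of 1. At 20 µM it belonged to Rrm2 (-0.19, 95% interval -0.31 to -0.06 and adjusted p = 0.341), followed by Rfc4 (-0.17) and Mcm4 (0.10). The Rrm2 libraries at 20 µM held 94.3, 81.3 and 91.1 CPM, all below the controls, and the lowest was replicate 2, the library with the high mitochondrial share.

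In cells given dexamethasone, 10 µM ginsenoside Rc again moved none of the 37 genes past the threshold. With edgeR 0 of 37 passed, where 0.0259% of all genes did (4 genes), and DESeq2 and limma voom called 0. An unadjusted p under 0.05 was reached by 3 of the 37 and by 3.85% of all genes. The median was -0.06, and all 3 libraries lay below all 3 of dexamethasone alone for 3 of the 37 genes, against 5.58% of all genes. The 3 genes with the smallest p were Rrm2 (-0.17), Rrm1 (-0.15) and Gins2 (-0.29), each with an adjusted p of 1.

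At 20 µM with dexamethasone, against dexamethasone alone, both subunits of ribonucleotide reductase were the genes with the smallest p. Rrm1 had 52.7, 55.7 and 55.3 CPM with dexamethasone and 44, 44.7 and 49.4 with 20 µM added, a change of -0.25 ± 0.06 (95% interval -0.36 to -0.13, adjusted p = 0.0675). Rrm2 had 138, 144 and 145 and 112, 116 and 130 CPM, a change of -0.26 ± 0.06 (95% interval -0.38 to -0.13, adjusted p = 0.0703). In both genes the 3 libraries lay below those of dexamethasone alone, and neither passed with edgeR. Their ratio per exon length was 4.70 to 4.79 with dexamethasone and 4.62 to 4.80 with 20 µM added. Gins2 followed (-0.38 ± 0.12, adjusted p = 0.221). The reads of Gins2 were divided with Gse1 by estimation, which makes its value less certain, and Gse1 changed by 0.01 ± 0.15 in this comparison.

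Over the 37 genes, 0 passed with edgeR in this comparison, where 0.369% of all genes did (57 genes). An unadjusted p under 0.05 was reached by 10 of the 37 and by 8.75% of all genes. The median was -0.13, and all 3 libraries lay lower for 5 of the 37 genes, against 7.68% of all genes. The call depended on the processing. DESeq2 passed Rrm1 (adjusted p = 0.00505) and Rrm2 (adjusted p = 0.00618), among 252 genes of 13372 with an adjusted p. Limma voom with sample weights passed Rrm1, Rrm2, Gins2 and Mcm6, among 957 genes of 15436. Without replicate 3 of the combined group Rrm1 and Rrm2 passed with edgeR (adjusted p = 0.0161 and 0.0119), as they did in a model without the library of high mitochondrial share (0.0118 and 0.00429). Replicate 3 had a mean log2 CPM over the 37 genes of 2.86, within the 2.73 to 2.89 of dexamethasone alone, while replicates 1 and 2 had 2.61 and 2.58. The mitosis and G2/M genes had a summed level of 99.9 to 142 CPM in the combined group and 112.6 to 157.4 with dexamethasone alone, overlapping ranges, and their part in these values was not tested.

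**Figure D5:**
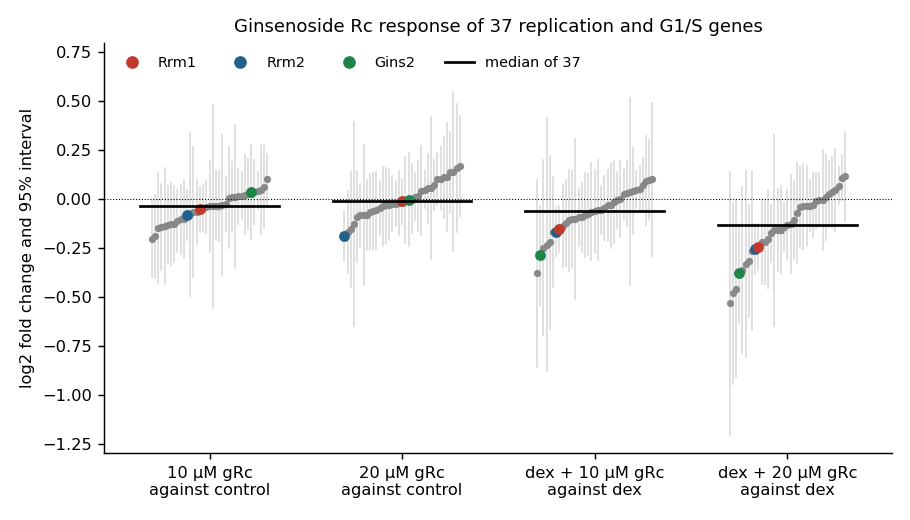
Log2 fold change (vertical axis; points, with 95% intervals in grey) of the 37 genes in the 4 comparisons of ginsenoside Rc, sorted within each, with the median as a black bar. Rrm1, Rrm2 and Gins2 are in colour, and at 20 µM with dexamethasone they stand at -0.25, -0.26 and -0.38.

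Both doses were set against the same control libraries, or against the same dexamethasone libraries, so their values are given side by side. Rrm2 changed by -0.08 and -0.19 at 10 and 20 µM alone and by -0.17 and -0.26 with dexamethasone. Rrm1 changed by -0.05 and -0.01 alone and by -0.15 and -0.25 with dexamethasone. The difference in the effect of ginsenoside Rc with and without dexamethasone was tested as an interaction. With edgeR 0 of 37 genes and 0% of all genes passed at either dose, and the medians of the 37 were -0.01 at 10 µM and -0.11 at 20 µM. An unadjusted p under 0.05 was reached by 0 of the 37 and 2.12% of all genes at 10 µM, and by 4 of the 37 and 5.29% of all genes at 20 µM. The smallest p at 20 µM belonged to Rrm1 (-0.23 ± 0.08), Ccne2 (-0.48 ± 0.18) and Cdc6 (-0.64 ± 0.27), each with an adjusted p of 0.885. At 10 µM it belonged to Gins2 (-0.32), Rfc4 (0.28) and Mcm5 (-0.39), each with an adjusted p of 1. DESeq2 and limma voom called 0 of the 37 in either interaction.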

How the data were processed

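Poly-A RNA of C2C12 myotubes was sequenced in 18 strand-directional libraries with paired reads of 100 bp, per the labels' protocols. The authors deposited 1 table of expected counts per Ensembl gene, the estimated counts that RSEM gives, of which 9.27% were not whole. Tools listed in the submitters' processing notes are STAR 2.7.3a, RSEM 1.3.3, Trim Galore 0.6.5 and FastQC 0.11.9, with the mouse build GRCm38 (mm10). Strand setting and annotation release: not given in the sources used here. RSEM splits reads of near-identical and overlapping genes by estimation, which makes those genes less certain.

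Expected counts were rounded, filtered with filterByExpr by group (15436 genes kept) and TMM scaled. In edgeR 4.0.16 (R 4.3.3) a robust quasi-likelihood model took all 6 group means at once, with Benjamini-Hochberg adjustment over all genes tested at 0.05. The test was also run on counts simulated with means and spreads from these data. Each standard error is the ratio of the log2 change to the root of its F. Log2 CPM used a prior count of 2. Symbols and exon lengths came from GENCODE mouse release M21 (GRCm38), and near-identical copies from an alignment of transcripts at 95% identity over at least 400 bases. Libraries of a group differed by more than sampling noise (chi-square per degree of freedom of 5.03 to 84.6), and each counted as 1 sample. The values of 84.6 and 83.1 both involve replicate 2 of the 20 µM group without dexamethasone, and the other pairs reached at most 15.6. This excess does not show that the libraries were separate cultures.

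The members and gene lists were chosen with earlier results of these data known, so counts over them are descriptions. All 37 genes were read in the dexamethasone comparisons, with library values for the highest gene and the largest change in each role, for those that did not fall and for Pcna, Cdt1, Rrm2, E2f1, Ccne1, Ccne2 and Uhrf1. In the ginsenoside comparisons the genes that passed, or else the 3 with the smallest p, were named, from each other list the 2 largest rises and 2 largest falls that passed, and the 5 genes most like the members. Rrm1, Gins2 and Mcm6 in the alternatives, the genes that overlap members, and Rrm2b, Mcmbp, Cdkn1a and those listed as not passing were named after their values were seen.

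Alternatives were DESeq2 1.42.0, limma 3.58.1 voom with sample weights, size factors by median ratio, library totals without composition scaling, all genes with a count, fits to the compared groups alone, a replicate block, a threshold of 1.2-fold and each library left out in turn. Summing Pcna with its pseudogene was added after the data were seen. All columns of the table were used.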

Additional observations from a re-analysis of the deposited data

How the results depend on the processing

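The direction of the dexamethasone result held under every alternative tried: 31 to 36 of the 37 genes were lower against control, 30 to 36 at 10 µM and 32 to 34 at 20 µM, and Rrm2 was higher. Over all results, 271 counts stayed within a fixed factor of the reported count, or at 0 where it was 0. Of the medians, 129 moved by less than the spread between replicates, and 1878 values of single genes kept their direction and side of the threshold. The rest were 5 counts and 9 medians that moved, and 32 values of single genes, of which 21 came to pass, 9 no longer passed and 2 turned in direction. The median of the 37 genes against control was -1.002 without composition scaling and -0.92 to -0.80 with each library left out. At 10 µM it was -0.94 without composition scaling. At 20 µM it was -1.12 with limma voom and -1.10 to -0.91 with each library left out. The median of the interaction at 10 µM was -0.075 to 0.006 with each library left out. Rfc1 at 20 µM, near 0, turned from -0.04 to 0.006 with limma voom and ran from -0.066 to 0.003 with each library left out, the last without replicate 2 of the 20 µM group. At 20 µM with dexamethasone against dexamethasone alone, the count of lower genes was 0 as reported, 2 with DESeq2, 4 with limma voom, 2 in the model without the library of high mitochondrial share and 0 to 2 with each library left out. With the replicate block 1 gene passed there, Rrm1 (-0.25, adjusted p = 0.0493), and no other count or gene crossed the threshold under it. Same-numbered libraries correlated at -0.196 to 0.15 in their deviations from group means, and in no comparison were all 3 over 0.1, so the numbers were not taken as pairs. The causes were not tested. Low counts limit the precision of Orc1 (SE 0.27 against control), and 3 libraries per group limit what the ginsenoside comparisons can show.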
